A study of Mus musculus with 5 samples.

Results

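The 38 genes described here are type I interferon-stimulated genes of the mouse, followed across 5 cultures of CD4 T cells. They were taken from a named list, and each was matched by the RefSeq accession of its array probes. All 38 were among the 21366 genes that could be named on the array, and the list sets no threshold on measured values. Where a gene had several probes, the probe with the highest mean signal over the arrays stood for it.

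Type I interferons bind the receptor formed by IFNAR1 and IFNAR2, whose kinases JAK1 and TYK2 phosphorylate STAT proteins, among them STAT2. STAT2 and IRF9 are part of the complex ISGF3, which binds the interferon-stimulated response element (ISRE) in the promoters of interferon-stimulated genes. The products of these genes sense viral RNA, degrade or edit it, block its translation, or restrain the interferon signal itself. Many of them also respond to interferon-gamma, the cytokine that Th1 cells secrete, which acts through gamma-activated sites (GAS). In resting T cells a low basal level of these transcripts is usual.

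All cultures began with naive CD4 T cells from the spleens of C57BL/6 mice. Th1 cells were grown for 4 days with IL-12 and IL-2, under anti-CD3/CD28 stimulation and with anti-IL-4. The iTreg cells, which are regulatory T cells induced in culture, had 4 days with anti-CD3/CD28, antibodies to IFN-gamma and IL-4, IL-2 and TGF-beta. Th1+TGFb cells were Th1 cells moved for 4 further days into that iTreg condition, 8 days in all. Rested cells were Th1 cells kept for 4 further days with antibodies to IFN-gamma and IL-4 and with IL-2, without anti-CD3/CD28, also 8 days in all. Th1reg cells were rested cells given 4 more days in the iTreg condition, 12 days in all. Neutralising antibody to IL-4 and added IL-2 were thus common to all 5 cultures, and the Th1 medium alone had no antibody to IFN-gamma. Age, sex and number of the mice are not given in the sources used here, and no interferon was added in any culture as the labels describe them.

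Each culture was measured once, on a 1-colour Agilent array, so a comparison below sets 1 array against 1 array, with no spread between cultures and no test. A level is log2 of the probe's signal divided by the 75th percentile of signals on its array, so 0 means a signal at that percentile, and levels are compared between cultures for the same probe, never between genes. Between 45.7% and 48.7% of spots were well above background. Repeat spots on the same array put the technical SD of a log2 difference at 0.0844 to 0.0969, and at 0.245 to 0.279 where the signal was under 100. A difference of at least 2-fold, 1 on the log2 scale, was counted as higher or lower, a size beyond that technical spread but not set against any spread between cultures. A probe not well above background is called dim, and a fold against it is a lower bound, written as at least. All 8 CD4 T cell markers were well above background on every array.

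Of the 38 genes, 32 were well above background on all 5 arrays. Ifi44 was measurable in rested cells only, and Rsad2, which encodes the antiviral enzyme viperin, was dim on every array. Over the 37 genes measured somewhere, the highest level lay in rested cells for 18 genes, in Th1 for 10, in Th1+TGFb for 6, in Th1reg for 2 and in iTreg for 1. Rested cells thus held the highest level of 48.6% of these genes, against 24.4% of the 14064 genes measured on at least 1 array. Th1reg held the highest level of 5.41% of them, against 28.0% of all such genes, and iTreg 2.70% against 14.7%. With the arrays scaled on spike-in controls instead, rested cells held the highest level of 8 genes (21.6%, against 4.67% of all genes) and Th1reg of 10 (27.0%, against 46.8%). For 7 genes (Bst2, Eif2ak2, Ifi27l2a, Ifit1, Isg20, Parp9 and Stat2) the 2 highest arrays lay closer than the largest technical SD of a difference, so their order was not resolved.

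The genes also spread widely. The median span from lowest to highest array was 4.36-fold, against 2.595-fold over all measured genes. A span of at least 4-fold was found for 20 of 37 genes (54.1%, against 27.5% of all genes), and one of at least 8-fold for 13 (35.1%, against 10.96%). By their brightest probes Parp14, Adar, Tor3a and Herc6 spanned less than 2-fold. Other probes of Tor3a and Herc6 spread further, from -2.70 in Th1+TGFb to -1.42 in rested cells and from -2.31 in Th1reg to -0.78 in Th1+TGFb.

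**Figure D1:**
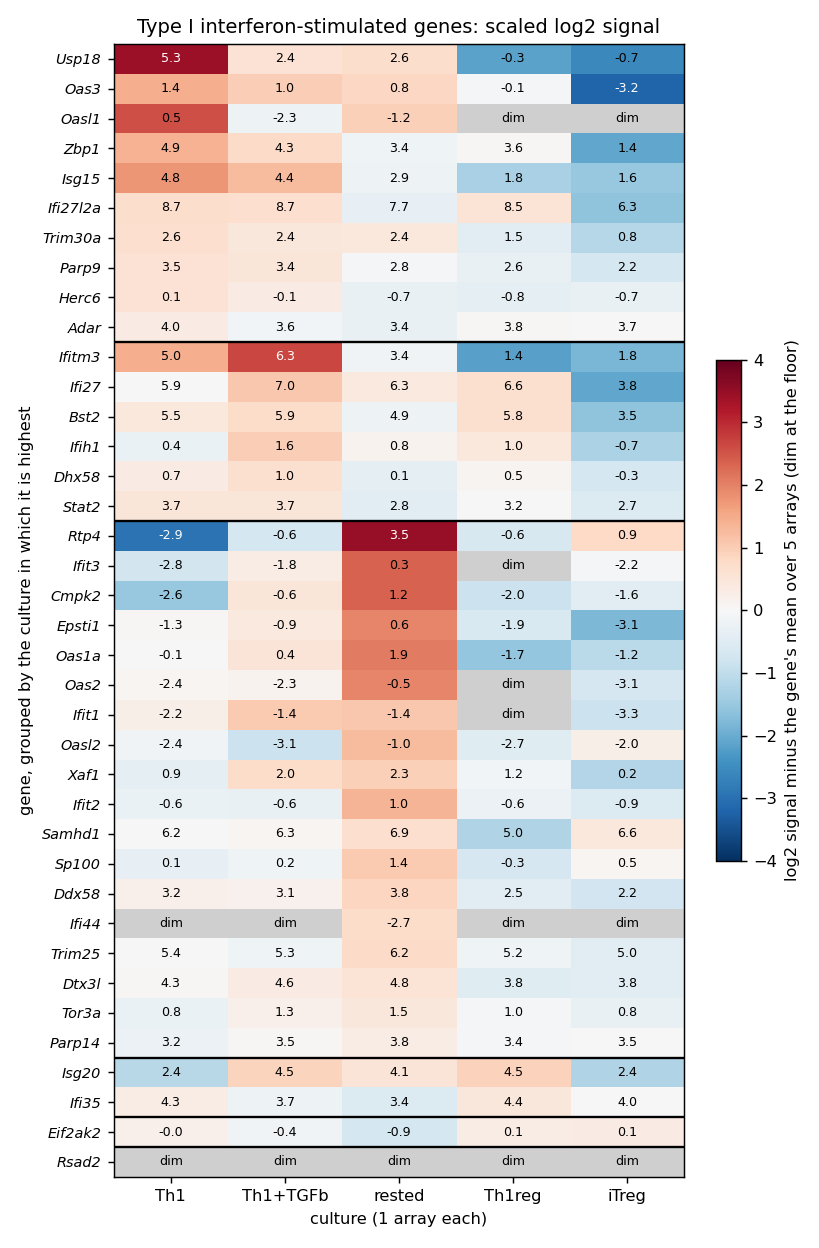
Scaled log2 signal of the 38 genes (rows) on the 5 arrays (columns, 1 per culture), printed in each cell and coloured by its distance from the gene's mean over the arrays. Rows are grouped by the culture with the highest level, grey cells marked dim were not well above background, and the block of 18 genes highest in rested cells is the largest.

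Promoter sequence was available in RefSeq (build GRCm38.p6) for 28 of the 38 genes, as windows of 300 bases from 250 before to 50 after each transcription start. The ISRE core was searched as GAAANNGAAA on both strands, and the gamma-activated site as TTCNNNGAA, which reads the same on both strands. An ISRE core stood in a window of 13 of the 28 genes (46.4%), against 1079 of all 27025 genes with a window (3.99%). A GAS core stood in 9 of the 28 (32.1%), against 2582 of all genes (9.55%). In 4 genes both were present, and in 2 of these the matches overlapped. The following 6 stretches carry ISRE cores of genes with different patterns across the cultures, and capitals mark the matches. Ifit3 and Oas1a were highest in rested cells, Isg15 and Oas3 in Th1, and Ifit1 and Bst2 had 2 highest arrays that could not be ordered. All 6 stretches lie wholly upstream of the start and are written 5′ to 3′ on the strand of the gene.
Ifit1 (chr19:34640740-34640858, plus strand): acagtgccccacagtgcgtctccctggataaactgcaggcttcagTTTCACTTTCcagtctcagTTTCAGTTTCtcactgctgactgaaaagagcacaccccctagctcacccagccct
Ifit3 (chr19:34583328-34583461, plus strand): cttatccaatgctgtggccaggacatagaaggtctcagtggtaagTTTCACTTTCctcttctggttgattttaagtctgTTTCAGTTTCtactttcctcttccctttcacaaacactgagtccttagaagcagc
Oas1a (chr5:120907526-120907590, minus strand): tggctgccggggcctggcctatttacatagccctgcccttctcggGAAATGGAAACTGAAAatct
Isg15 (chr4:156200830-156200941, minus strand): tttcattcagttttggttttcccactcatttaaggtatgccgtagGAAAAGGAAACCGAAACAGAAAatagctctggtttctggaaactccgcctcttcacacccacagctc
Oas3 (chr5:120777680-120777779, minus strand): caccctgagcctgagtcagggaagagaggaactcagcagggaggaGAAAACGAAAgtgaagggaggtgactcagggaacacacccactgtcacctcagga
Bst2 (chr8:71537542-71537647, minus strand): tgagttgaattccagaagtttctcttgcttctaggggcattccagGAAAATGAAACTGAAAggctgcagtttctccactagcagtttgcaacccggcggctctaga
Grouped by the culture of highest level, an ISRE core was found in 4 of 14 genes highest in rested cells (Ifit1, Ifit3, Oas1a and Ddx58), in 3 of 6 highest in Th1 (Isg15, Oas3 and Trim30a) and in 4 of 4 highest in Th1+TGFb (Bst2, Ifih1, Ifitm3 and Stat2). The order of the highest arrays was not resolved for Ifit1, Bst2 and Stat2, and with spike-in scaling Ifitm3 alone of the last 4 was highest in Th1+TGFb, so nothing is read from this grouping. It was also found in Eif2ak2 and in Rsad2. A match describes letters in a window and not binding of a factor.

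Moving Th1 cells to rest went with higher levels of 11 of the 37 measurable genes and lower levels of 6. All genes leaned the other way: 17.6% of 13231 were at least 2-fold higher in rested cells and 26.7% were lower. The median log2 difference was 0.52 for the interferon-stimulated genes and -0.29 for all genes. With spike-in scaling 3 of the 37 were higher and 16 were lower, beside 4.69% higher and 64.7% lower over all genes. The medians were then -0.62 and -1.43. The genes furthest above Th1 were Rtp4, Cmpk2 and Ifit3, and those furthest below were Usp18, Isg15 and Oasl1. The array cannot tell a change in the share of cells expressing a gene from a change in RNA per cell, here or in what follows.

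Returning rested cells to stimulation in the iTreg condition went with lower levels of 19 of 37 genes in Th1reg, and 1, Ifi35, was 2-fold higher. Over all 13334 genes 27.7% were higher and 20.0% were lower. The median was -1.04 for the interferon-stimulated genes against 0.29 for all genes. With spike-in scaling 14 of the 37 were higher and 9 were lower, beside 71.4% higher and 5.53% lower over all genes. The medians were then 0.42 and 1.74. In 5 of the 37 the Th1reg side was dim, so their folds are lower bounds. Ifit3, Rtp4, Oas1a and Oas2 stood furthest below rested cells.

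Giving Th1 cells the same iTreg condition without rest went with smaller differences. Between Th1+TGFb and Th1, 8 of 36 genes were higher and 2 were lower, beside 11.4% and 7.79% of all 13057 genes. The median was 0.08, against -0.20 for all genes. With spike-in scaling 3 of the 36 were higher and 3 were lower, beside 7.13% and 19.9% of all genes. The lower genes were Usp18 and Oasl1, and the higher ones were led by Rtp4, Cmpk2 and Isg20.

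Rested cells and Th1+TGFb cells had the same total time in culture but differed in stimulation and TGF-beta. In rested cells 10 of 37 genes were higher and 2 were lower, Ifitm3 and Isg15. The shares over all 13126 genes were 8.82% higher and 17.6% lower. The median was 0.14, against -0.11 for all genes. With spike-in scaling 4 of the 37 were higher and 14 were lower, beside 2.20% and 45.8% of all genes.

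Between iTreg and Th1, both after 4 days of stimulation, 17 of 36 genes were lower in iTreg and 2, Rtp4 and Cmpk2, were higher. Over all 13155 genes 10.8% were higher and 17.8% were lower. The median was -0.94 for the interferon-stimulated genes and -0.23 for all genes. With spike-in scaling 2 of the 36 were higher and 11 were lower, beside 16.5% and 11.4% of all genes. With detected probes and with normexp background correction 11 were lower too, beside 10.2% and 12.5% of all genes. Usp18, Oas3 and Oasl1 stood furthest below Th1.

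Th1reg and Th1+TGFb cells ended in the same medium, with and without the period of rest. None of 36 genes was 2-fold higher in Th1reg and 11 were lower, beside 12.3% higher and 15.1% lower over all 13215 genes. The median was -0.65 for the interferon-stimulated genes and 0.20 for all genes. With spike-in scaling 3 of the 36 were higher and 6 were lower, beside 41.3% and 8.13% of all genes. The medians were then -0.0013 and 0.85. Ifitm3, Usp18 and Isg15 stood furthest below Th1+TGFb.

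Th1reg and iTreg also ended in the same medium and differed in what preceded it. Here 9 of 35 genes were higher in Th1reg and 3, Ifit3, Samhd1 and Rtp4, were lower, beside 15.8% higher and 12.2% lower over all 13187 genes. The median of 0.25 lay next to that of all genes, 0.28. With scaling on detected probes 7 were higher and 7 were lower, beside 8.33% and 18.5% of all genes. Oas3, Ifi27 and Bst2 stood furthest above iTreg. Several of these comparisons share an array, so their counts are not independent of each other.

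**Figure D2:**
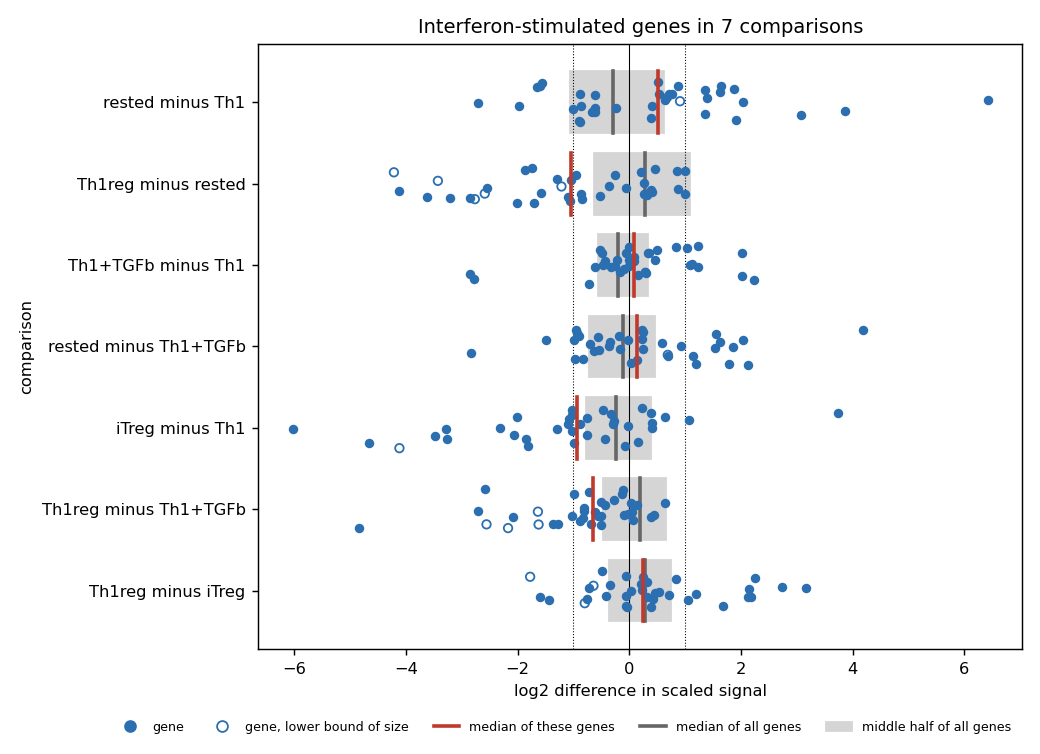
Log2 difference in scaled signal (horizontal axis) of each interferon-stimulated gene in the 7 comparisons (vertical axis). Open circles are lower bounds, red bars mark the median of these genes, dark grey bars the median of all genes, grey boxes the interquartile range of all genes, and dotted lines 2-fold. The red bar lies furthest below the grey one in Th1reg minus rested, at -1.04 against 0.29.

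Of the 4 sensors of foreign nucleic acid among these genes, 3 stood 2-fold or more below their Th1 level in iTreg. The share over all genes was 17.8%. Ddx58 encodes RIG-I, Ifih1 encodes MDA5, Dhx58 encodes their regulator LGP2, and Zbp1 encodes a sensor of Z-form nucleic acid that can trigger cell death. Zbp1 read 4.91 in Th1, 3.35 in rested, 4.29 in Th1+TGFb, 3.56 in Th1reg and 1.43 in iTreg. Ifih1 read 0.37 in Th1, 0.77 in rested, 1.59 in Th1+TGFb, 1.03 in Th1reg and -0.66 in iTreg. Dhx58 ranged from -0.30 in iTreg to 1.04 in Th1+TGFb and Ddx58 from 2.19 in iTreg to 3.81 in rested cells, so all 4 had their lowest level in iTreg, although with spike-in scaling Ifih1 and Dhx58 were lowest in rested cells. Relative to Th1, Zbp1 was 11.2-fold, Dhx58 2.05-fold and Ifih1 2.04-fold lower in iTreg, while the Ddx58 difference was under 2-fold. Relative to iTreg, Th1reg had 4.40-fold more Zbp1 and 3.22-fold more Ifih1 signal. The other Zbp1 probe gave a smaller log2 difference there, 1.095, and gave -1.25 for Th1reg minus rested where the brighter probe differed by less than 2-fold. The median of the 4 sensors was -1.03 in iTreg minus Th1 and 1.26 in Th1reg minus iTreg, and was -0.73 and 1.27 with spike-in scaling and -0.65 and 0.89 with detected probes. Only 1 of the 4, Zbp1, stayed at least 2-fold below Th1 in iTreg with spike-ins, with detected probes or with normexp background correction. A separate list of other genes of nucleic acid sensing had 2 higher and 3 lower of 12 in iTreg against Th1, with a median of -0.04. Over all genes 10.8% were higher and 17.8% were lower in that comparison.

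The oligoadenylate synthetase (OAS) family makes the messenger that activates RNase L, which cuts RNA. Its 5 genes fell into different patterns, although Oas2 and Oas3, and likewise Oasl1 and Oasl2, are neighbours on chromosome 5. Oas1a read -0.09 in Th1, 1.95 in rested, 0.40 in Th1+TGFb, -1.67 in Th1reg and -1.19 in iTreg. Oas2 read -2.38 in Th1, -0.51 in rested, -2.30 in Th1+TGFb and -3.14 in iTreg and was dim in Th1reg. Both were highest in rested cells, by 4.11-fold and 3.65-fold over Th1, and Th1reg was 12.3-fold lower than rested for Oas1a and at least 10.8-fold lower for Oas2. Oasl2 was also highest in rested cells, 2.64-fold over Th1 and 4.36-fold over Th1+TGFb, and was 3.33-fold lower in Th1reg than in rested cells. With spike-in scaling Oasl2 was highest in iTreg. Oas3, in contrast, read 1.43 in Th1, 0.81 in rested, 0.96 in Th1+TGFb, -0.06 in Th1reg and -3.24 in iTreg. Its iTreg level was 25.4-fold below Th1, 9.03-fold below Th1reg and near the lowest signal that the array measured. Oasl1, which encodes a family member without synthetase activity that limits translation of IRF7, read 0.45 in Th1, -1.20 in rested and -2.34 in Th1+TGFb and was dim in Th1reg and iTreg. It was 6.91-fold lower in Th1+TGFb than in Th1 and at least 17.4-fold lower in iTreg. As a family, 3 of 5 genes were higher and 1 lower in rested cells than in Th1, and 4 of 5 were lower in Th1reg than in rested cells. The shares over all genes were 17.6%, 26.7% and 20.0% in the same order. The family medians, 1.40 and -2.77, were 0.26 and -1.31 with spike-in scaling. There 0 genes were higher and 2 lower in rested cells than in Th1, and 3 lower in Th1reg than in rested cells. The shares over all genes were then 4.69%, 64.7% and 5.53%.

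Among genes whose products bind RNA or block its translation, the IFIT genes stood apart from Eif2ak2 and Adar by pattern. Of the 6 genes in this group 3 were higher in rested cells than in Th1 (median 1.25, or 0.10 with spike-in scaling), and 3 were lower in Th1reg than in rested cells (median -0.63, turning to 0.83 with spike-in scaling). The shares over all genes were 17.6% and 20.0%. IFIT proteins recognise the ends of foreign RNA and hold back its translation. Ifit3 read -2.83 in Th1, 0.25 in rested, -1.79 in Th1+TGFb and -2.19 in iTreg and was dim in Th1reg. Its rested level was 8.47-fold above Th1, 4.13-fold above Th1+TGFb and at least 18.6-fold above Th1reg. Ifit2 read -0.62 in Th1, 1.01 in rested, -0.62 in Th1+TGFb, -0.57 in Th1reg and -0.89 in iTreg. It was highest in rested cells, where it stood 3.08-fold above Th1 and 2.99-fold above Th1reg. With spike-in scaling it was still highest there, but by less than 2-fold over each other culture. Ifit1 read -2.24 in Th1, -1.38 in rested, -1.41 in Th1+TGFb and -3.32 in iTreg and was dim in Th1reg. For Ifit1 rested and Th1+TGFb cells could not be told apart, and Th1reg was at least 6.02-fold below rested cells.

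Isg20, an exonuclease of single-stranded RNA, fell into a pattern of its own. It read 2.44 in Th1, 4.09 in rested, 4.45 in Th1+TGFb, 4.48 in Th1reg and 2.36 in iTreg. The 3 cultures derived from Th1 cells were high and the 2 cultures taken at 4 days were low, with 4.03-fold between Th1+TGFb and Th1, 3.13-fold between rested and Th1, and 4.36-fold between Th1reg and iTreg. Its other probe gave the same order of high and low cultures, with 1.32 in Th1, 3.07 in rested, 3.48 in Th1+TGFb, 3.39 in Th1reg and 1.01 in iTreg. With spike-in scaling, which shifted all genes by -1.14 in rested minus Th1, rested cells stood less than 2-fold above Th1 by either probe. Eif2ak2, which encodes the kinase PKR, was highest in iTreg and Th1reg, whose order was not resolved. It read -0.04 in Th1, -0.92 in rested, -0.37 in Th1+TGFb, 0.08 in Th1reg and 0.12 in iTreg, so rested cells were lowest and no comparison reached 2-fold. The largest difference, Th1reg minus rested, was 0.9954. With spike-in scaling rested cells stood more than 2-fold below Th1 and Th1reg. Adar, an RNA-editing enzyme, spanned 1.54-fold from 3.43 in rested cells to 4.05 in Th1, but its other probe was highest in rested cells, at 2.18 against 1.88 in Th1.

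Genes of the ISG15 pathway were led by Th1 cells. ISG15 is a ubiquitin-like protein that is attached to other proteins, in the mouse mainly by HERC6, and is removed by USP18, which also restrains signalling at IFNAR2. Usp18 read 5.31 in Th1, 2.59 in rested, 2.44 in Th1+TGFb, -0.26 in Th1reg and -0.72 in iTreg. Isg15 read 4.84 in Th1, 2.86 in rested, 4.36 in Th1+TGFb, 1.77 in Th1reg and 1.55 in iTreg. The levels of both were highest in Th1 and lowest in Th1reg and iTreg (for Isg15 in rested cells with spike-in scaling), with 65.1-fold between Th1 and iTreg for Usp18 and 9.77-fold for Isg15. Usp18 was 7.26-fold lower in Th1+TGFb than in Th1, whereas Isg15 differed by less than 2-fold there. Rested cells were 6.58-fold below Th1 for Usp18 and 3.93-fold below for Isg15, the opposite of the IFIT and Oas1a direction. The other probe of Isg15 gave -2.32 for rested minus Th1 and -3.77 for iTreg minus Th1. Herc6 spanned 1.92-fold, from -0.79 in Th1reg to 0.15 in Th1. Trim25, a ubiquitin ligase that acts on RIG-I, read 6.20 in rested cells and no more than 5.43 in the other 4. With spike-in scaling Trim25 was highest in Th1reg. Trim30a, a ubiquitin ligase family member that dampens NF-kappaB signalling, was highest in Th1 and read 2.35 in rested, 2.37 in Th1+TGFb and 0.79 in iTreg, where it was 3.51-fold below Th1.

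**Figure D3:**
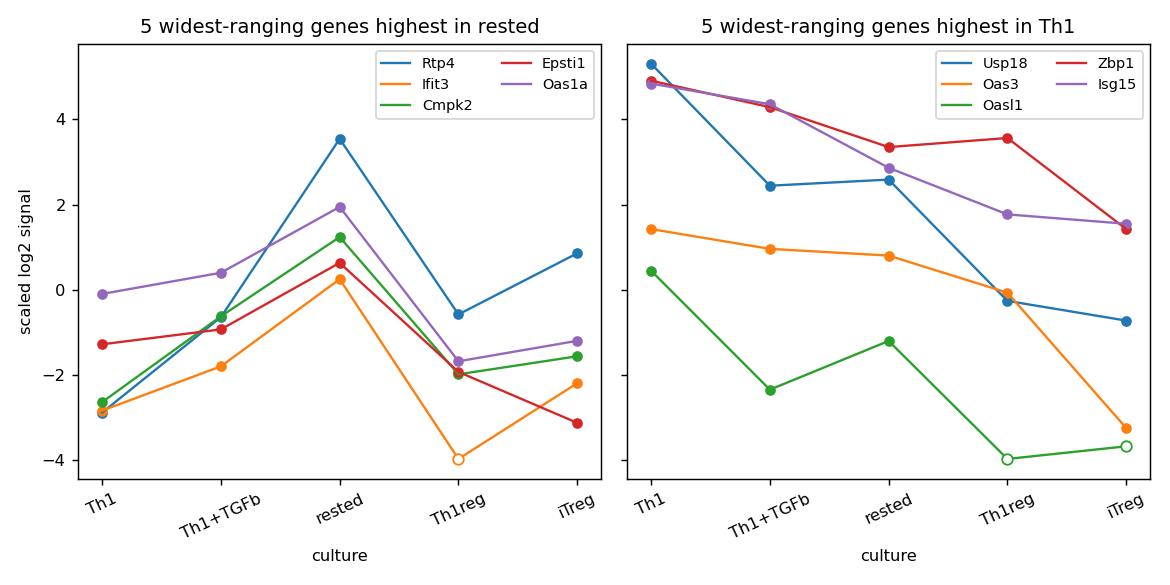
Scaled log2 signal (vertical axis) on the 5 arrays (horizontal axis) of the 5 widest-ranging genes highest in rested cells (left) and in Th1 cells (right). Lines only join the values of a gene, and open circles are dim values drawn at the lowest signal well above background. Rtp4 peaks at 3.54 in rested cells, and Usp18 is highest at 5.31 in Th1.

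STAT2 and the ADP-ribosylation genes varied within narrow limits, with spans of at most 2.45-fold. Stat2, the interferon-specific subunit of ISGF3, read 3.71 in both Th1 and Th1+TGFb and was lower in Th1reg (3.22), rested (2.82) and iTreg cells (2.69). Parp9 and Dtx3l encode partners in a ubiquitin ligase complex and lie next to each other and to Parp14 on chromosome 16. Dtx3l and Parp14 were highest in rested cells, at 4.80 and 3.77, whereas Parp9 was highest in Th1 at 3.48 and read 2.84 in rested cells. Of the 28 comparisons of these 4 genes, those that reached 2-fold were Stat2 and Parp9 in iTreg against Th1, 2.03-fold and 2.45-fold lower, and Dtx3l in Th1reg against rested cells, 2.05-fold lower. With spike-ins or detected probes neither Stat2 nor Parp9 reached 2-fold in iTreg against Th1. With spike-ins Dtx3l turned to 0.42 in Th1reg against rested cells. That scaling also left 2 of the 4 genes 2-fold lower in rested cells than in Th1, beside 64.7% of all genes. In Th1reg against rested cells 3 of the 4 were then higher, beside 71.4% of all genes. Dtx3l was then highest in Th1 and Parp14 in iTreg.

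Cmpk2, a mitochondrial nucleotide kinase next to Rsad2 on chromosome 12, read -2.63 in Th1, 1.24 in rested, -0.62 in Th1+TGFb, -1.98 in Th1reg and -1.56 in iTreg. Rested cells were highest, 14.6-fold above Th1 and 9.31-fold above Th1reg, and Th1+TGFb was 4.04-fold above Th1. Its other probe gave differences of 3.98 for rested minus Th1 and -2.91 for Th1reg minus rested on the log2 scale. Samhd1, which hydrolyses deoxynucleotides and so limits reverse transcription, read 6.19 in Th1, 6.86 in rested, 6.27 in Th1+TGFb, 4.99 in Th1reg and 6.60 in iTreg. Th1reg was lowest for Samhd1, 3.65-fold below rested cells, 3.05-fold below iTreg and 2.43-fold below Th1+TGFb. With spike-in scaling the log2 differences were -0.41, -1.59 and -0.63, so that the one against iTreg alone stayed past 2-fold.

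Genes of membranes and protein trafficking gave both the largest and some of the smallest spans. Rtp4, a chaperone that brings receptors to the cell surface, read -2.88 in Th1, 3.54 in rested, -0.64 in Th1+TGFb, -0.57 in Th1reg and 0.86 in iTreg. Rested cells were 85.6-fold above Th1, 18.2-fold above Th1+TGFb and 17.4-fold above Th1reg, and Rtp4 was also 13.3-fold higher in iTreg than in Th1, where most of the genes were lower. Ifitm3, which blocks fusion of virus with endosomes, read 5.04 in Th1, 3.45 in rested, 6.28 in Th1+TGFb, 1.44 in Th1reg and 1.78 in iTreg. Ifitm3 was high in Th1+TGFb, where it stood 28.6-fold above Th1reg, 7.10-fold above rested cells and 2.35-fold above Th1, although Th1reg ended in the same medium. Bst2, or tetherin, which holds budding virus at the cell surface, read 5.52 in Th1, 4.91 in rested, 5.86 in Th1+TGFb, 5.77 in Th1reg and 3.51 in iTreg. For Bst2 the iTreg array was low (with spike-in scaling the rested array was level with it), 4.03-fold below Th1 and 4.79-fold below Th1reg. Tor3a, an ATPase of the endoplasmic reticulum, spanned 1.67-fold.

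The genes tied to mitochondria and cell death were low in iTreg. Ifi27 and Ifi27l2a lie side by side on chromosome 12 and encode small related membrane proteins, and Xaf1 encodes a binding partner of the apoptosis inhibitor XIAP. Ifi27 read 5.91 in Th1, 6.31 in rested, 7.01 in Th1+TGFb, 6.58 in Th1reg and 3.84 in iTreg. Ifi27l2a read 8.67 in Th1, 7.65 in rested, 8.65 in Th1+TGFb, 8.52 in Th1reg and 6.35 in iTreg. Xaf1 read 0.92 in Th1, 2.27 in rested, 2.04 in Th1+TGFb, 1.20 in Th1reg and 0.16 in iTreg. All 3 were lowest in iTreg (Ifi27l2a in rested cells with spike-in scaling), and all 3 were higher in Th1reg than in iTreg, by 6.66-fold, 4.52-fold and 2.06-fold. The other probe of Xaf1 went against its part of that result: it was dim in Th1reg and read -3.08 in iTreg. The medians of the 3 genes, -2.07 in iTreg minus Th1 and 2.18 in Th1reg minus iTreg, were -1.77 and 2.19 with spike-in scaling.

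Of the remaining genes, Epsti1 and Sp100 were highest in rested cells. Epsti1, named for epithelial-stromal interaction, read -1.28 in Th1, 0.64 in rested, -0.93 in Th1+TGFb, -1.92 in Th1reg and -3.12 in iTreg. Sp100, a component of nuclear bodies, read 0.08 in Th1, 1.43 in rested, 0.24 in Th1+TGFb, -0.27 in Th1reg and 0.49 in iTreg. Rested cells were 5.89-fold above Th1reg for Epsti1 and 3.25-fold for Sp100. With spike-in scaling Sp100 was highest in iTreg, and its rested level was less than 2-fold above Th1reg. Ifi44 read -2.75 in rested cells, at least 2.32-fold above Th1reg, a bound that was lost with spike-in scaling. Ifi35, which binds the interferon-induced protein NMI, read 4.25 in Th1, 3.38 in rested, 3.73 in Th1+TGFb, 4.38 in Th1reg and 3.96 in iTreg. Like Eif2ak2 it was lowest in rested cells, against the pattern of the 18 genes that peaked there.

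The iTreg condition was entered once from Th1 cells and once from rested cells, and these steps share no array. Of the 36 genes with a value for both steps, 19 (52.8%) had differences of opposite sign, against 71.3% of all 12588 genes, and 5 (13.9%, against 12.0% of all genes) were at least 2-fold apart in opposite directions. These were Rtp4, Cmpk2, Ifit3, Ifitm3 and Xaf1, each higher in Th1+TGFb than in Th1 and lower in Th1reg than in rested cells. With spike-in scaling Rtp4 and Cmpk2 alone of the 5 were still at least 2-fold apart at both steps. For Rtp4 the log2 differences were 2.24 and -4.12, and for Cmpk2 they were 2.01 and -3.22. Usp18 and Oasl1 instead were lower at both steps, with -2.86 and -2.85 for Usp18 and -2.79 and at most -2.77 for Oasl1. With 1 array per culture the difference between the steps was not tested.

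**Figure D4:**
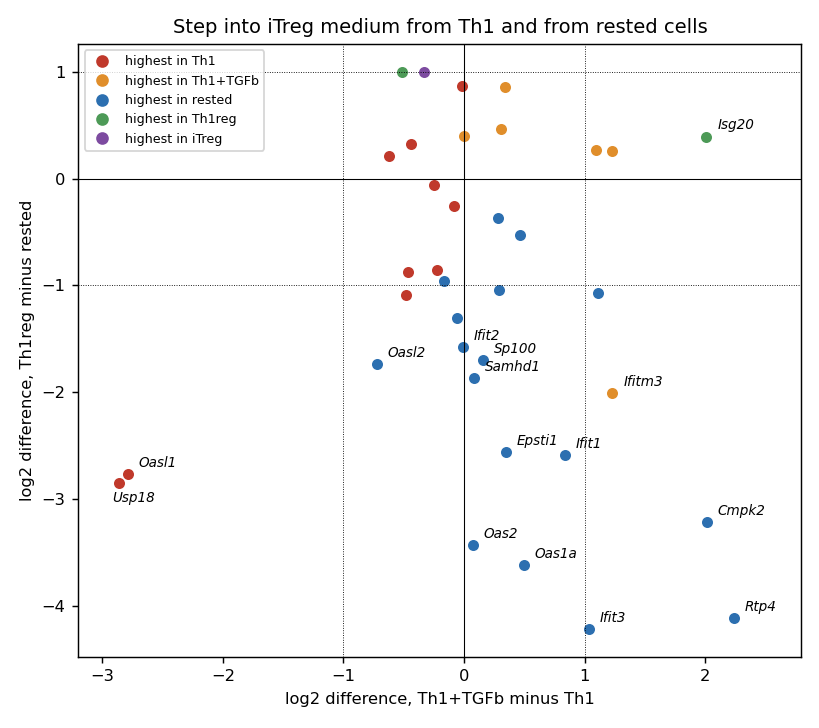
Log2 difference of each gene at the step into the iTreg condition from Th1 cells (horizontal axis, Th1+TGFb minus Th1) and from rested cells (vertical axis, Th1reg minus rested), with colours for the culture of highest level and dotted lines at 2-fold. Rtp4, Cmpk2 and Ifit3 lie at the lower right, and Usp18 and Oasl1 at the lower left.

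The interferons themselves gave little signal. Of 18 listed type I, kappa, epsilon and lambda interferon genes 14 had a probe, 8 of these were well above background on at least 1 array and 3 on all 5, and Ifnb1, the gene of interferon-beta, was dim on every array. Of the 8, 4 were 2-fold higher in rested cells than in Th1, and 7 of 8 were lower in Th1reg than in rested cells. The shares over all genes were 17.6% and 20.0%. Ifna11 read -3.52 in Th1, -1.58 in rested and -2.37 in Th1+TGFb and was dim in Th1reg and iTreg. Interferon-alpha genes are similar in sequence, so the signal of a single one is uncertain, and these levels lie close to the lowest measurable signal. With spike-in scaling none of the 8 was 2-fold higher or lower in either comparison, and with normexp 1 was higher in rested cells than in Th1 and 3 were lower in Th1reg than in rested cells.

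Receptor and signalling genes were measured on every array, 11 of 11. In rested cells 2 of the 11 were higher than in Th1 and 4 were lower, beside 17.6% and 26.7% of all genes, and with spike-in scaling 0 were higher and 5 lower. Ifnar1, a receptor chain, read 1.78 in Th1, 2.98 in rested, 2.20 in Th1+TGFb, 1.92 in Th1reg and 3.15 in iTreg. Irf9 was highest in rested cells at 4.46 and ranged from 3.25 to 4.06 in the others. Among the 9 interferon regulatory factor genes, Irf7, the factor that amplifies interferon production, read -0.97 in Th1, 0.91 in rested, 0.34 in Th1+TGFb, -1.22 in Th1reg and -2.69 in iTreg. Irf7 was 3.69-fold higher in rested cells than in Th1 and 4.37-fold higher than in Th1reg. Irf4 and Irf8 went the other way, 28.7-fold and 65.2-fold lower in rested cells than in Th1. In all, 1 of the 9 factors was higher and 2 were lower at that step, or 0 and 6 with spike-in scaling. Over all genes 4.69% were higher and 64.7% lower there with spike-in scaling.

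A longer list of 46 further interferon-stimulated genes, of which 41 had a probe, gave 13 higher and 5 lower of 37 in rested cells against Th1 (median 0.55). Against rested cells, Th1reg had 1 higher and 11 lower of 37 (median -0.50), and against Th1, iTreg had 14 lower of 36 and none higher (median -0.68). Over all genes the shares higher and lower were 17.6% and 26.7%, 27.7% and 20.0%, and 10.8% and 17.8%. With spike-in scaling the counts were 5 higher and 14 lower, 17 higher and 5 lower, and 3 higher and 10 lower. The shares over all genes were then 4.69% and 64.7%, 71.4% and 5.53%, and 16.5% and 11.4%. The shift of the list's median against the median of all genes was 0.84, -0.79 and -0.45 in these comparisons. Ifit1bl1, a relative of Ifit1 on the array, read -0.88 in Th1+TGFb and 3.54 in rested cells and was dim in the other 3, so rested cells were at least 147-fold above Th1. Ifitm1, a relative of Ifitm3, read 3.50 in Th1, 6.57 in rested, 8.02 in Th1+TGFb, 4.22 in Th1reg and 2.32 in iTreg. Like Ifitm3 it was highest in Th1+TGFb, 23.0-fold above Th1, but unlike Ifitm3 it was 8.39-fold higher in rested cells than in Th1.

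Interferon-gamma signalling genes were read beside these because the media differed in antibody to that cytokine. Ifng read 10.23 in Th1, 2.79 in rested, 9.56 in Th1+TGFb, 8.37 in Th1reg and 1.27 in iTreg, low in rested and iTreg cells and high in the other 3. Of 19 genes of that axis 6 were higher and 4 lower in rested cells than in Th1 (1 and 8 with spike-in scaling), and 8 were lower and 1 higher in iTreg than in Th1. Over all genes 17.6% were higher and 26.7% lower in rested cells (4.69% and 64.7% with spike-in scaling). In iTreg 17.8% were lower and 10.8% higher. Gbp5, a guanylate-binding protein gene, was 7.89-fold lower in rested cells than in Th1, and its relative Gbp6 was 4.52-fold higher. The part of interferon-gamma in the levels of the 38 genes was not tested.

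The summed signals of B cell, myeloid and plasmacytoid dendritic cell markers were highest in rested cells too, although the latter sums followed single probes, Itgam and Siglech. With spike-in scaling rested cells kept the highest sum for myeloid markers only, close to that of Th1+TGFb. The B cell and plasmacytoid dendritic cell sums were then highest in iTreg, and the latter was lowest in rested cells. Of 7 B cell markers 3 were well above background on some array, and Cd79a, Blk and Pax5 were among those dim on all 5. The log2 of their summed signal was -0.20 in Th1, 2.02 in rested, 1.01 in Th1+TGFb, -0.56 in Th1reg and 0.94 in iTreg. Of 11 myeloid markers 5 were measurable somewhere, and Lyz1, Lyz2, Fcgr1, S100a8, S100a9 and Flt3 were dim throughout. Their summed signal was 6.53 in Th1, 8.85 in rested, 7.96 in Th1+TGFb, 5.62 in Th1reg and 6.59 in iTreg. Itgam, an integrin chain also found on activated lymphocytes, read 8.84 in rested cells and 6.52 in Th1 and was lowest in Th1reg. All 7 markers of plasmacytoid dendritic cells, the main producers of type I interferon, were measurable somewhere and 3 on all arrays, and their summed signal was 8.58 in Th1, 9.45 in rested, 8.99 in Th1+TGFb, 8.33 in Th1reg and 8.85 in iTreg. Within that list Siglech was highest in rested cells at 9.45 and Irf8 was lowest there at 0.91. Of the 7 markers 2 were higher and 2 lower in rested cells than in Th1, with a median of 0.38. Of 5 CD8 T and NK cell markers 3 were measurable, Ncr1 and Klrb1c were dim throughout, and the sums were -0.45 in Th1, 0.28 in rested, 0.84 in Th1+TGFb, -0.93 in Th1reg and 0.63 in iTreg. The sums of CD4 T cell markers ran from 9.84 in iTreg to 10.92 in Th1, and beside the genes low in iTreg 5 of the 8 CD4 T cell markers also stood 2-fold or more below their Th1 level there, with a median of -1.27. Cd8a was well above background in iTreg alone, at least 10.4-fold above Th1. The part of other cells in the levels of the interferon-stimulated genes was not tested.

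The choice of scaling moved every gene of an array together, and the rested array was the dimmest, with a 75th percentile of 144 signal units against 198 to 307 on the others. Scaling on the 7 spike-in probes shifted the median of all genes by -1.14 in rested minus Th1, 1.46 in Th1reg minus rested, -0.34 in Th1+TGFb minus Th1, -0.81 in rested minus Th1+TGFb, 0.30 in iTreg minus Th1 and 0.65 in Th1reg minus Th1+TGFb. Scaling on probes detected on all arrays shifted it by 0.46, -0.43, 0.23, 0.27, 0.37 and -0.20 in the same order, and by -0.34 in Th1reg minus iTreg. With spike-ins, 3 of the interferon-stimulated genes were higher and 16 lower in rested cells than in Th1, and 14 were higher and 9 lower in Th1reg than in rested cells. With detected probes the counts were 19 and 5, and 0 and 23. The share of all 2-fold genes that were higher was 39.7% in rested minus Th1, 65.3% with detected probes and 6.76% with spike-ins, and in Th1reg minus rested it was 58.0%, 36.6% and 92.8%. That share was 59.4%, 78.5% and 26.4% in Th1+TGFb minus Th1, 33.4%, 55.3% and 4.58% in rested minus Th1+TGFb, and 37.9%, 64.5% and 59.2% in iTreg minus Th1. It was 44.8%, 27.6% and 83.6% in Th1reg minus Th1+TGFb, and 56.5% and 31.1% with detected probes in Th1reg minus iTreg.

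Subtracting the median of all genes removes such a shift. The median of the interferon-stimulated genes minus that of all genes was 0.81 in rested minus Th1 and -1.33 in Th1reg minus rested, and it was 0.81 and -1.33 with spike-ins and 0.87 and -1.41 with detected probes. With normexp background correction, a model of background plus signal, it was 0.54 and -0.98. Without the floor and filter on dim signals it was 0.17 and -0.61. There it also changed sign in Th1+TGFb minus Th1 (0.28 to -0.10), in rested minus Th1+TGFb (0.25 to -0.03) and in Th1reg minus iTreg (-0.03 to 0.34). Of the 101 single-gene differences of at least 2-fold, 4 turned with spike-ins, those of Isg15, Ddx58, Dtx3l and Xaf1 in Th1reg minus rested. The bound of Ifi44 in that comparison was lost with spike-ins, which left no difference. In all 5 ways of scaling, background correction and deposited values compared, rested cells were highest for 8 genes (Cmpk2, Epsti1, Ifi44, Ifit2, Ifit3, Oas1a, Oas2 and Rtp4), Th1 for 6 (Herc6, Isg15, Oas3, Oasl1, Usp18 and Zbp1), Th1+TGFb for Ifitm3 and Th1reg for Ifi35.

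**Figure D5:**
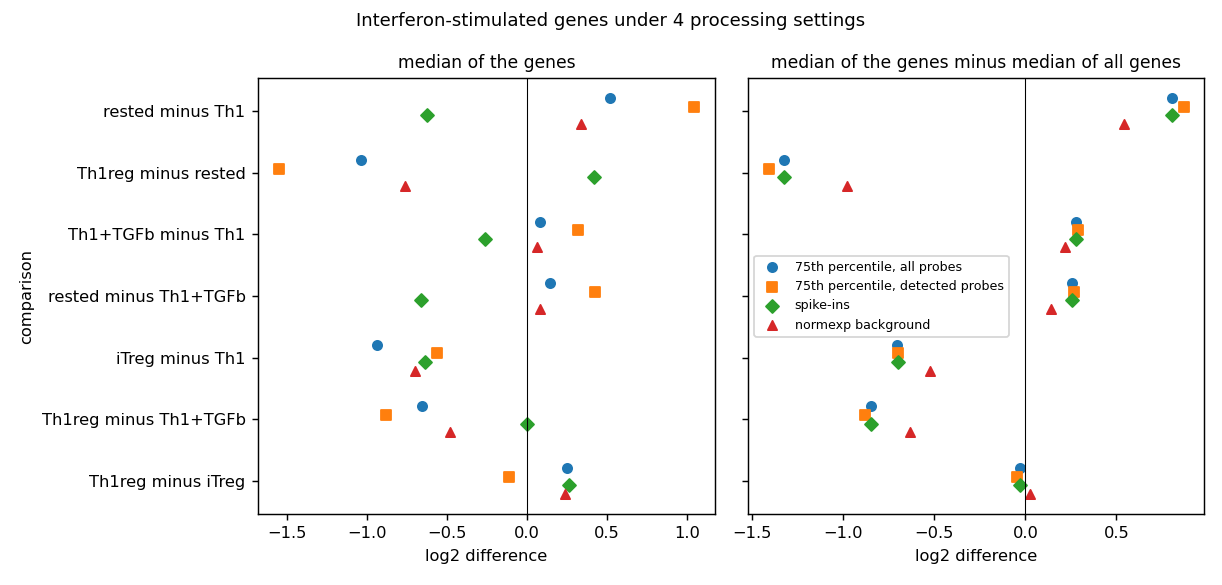
Median log2 difference of the interferon-stimulated genes (left) and the same minus the median of all genes (right) in the 7 comparisons (vertical axis), with 4 processing settings as symbols. On the left the spike-in value for rested minus Th1 lies at -0.62 against 0.52 in the main setting, and on the right both lie at 0.81.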

How the data were processed

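The authors deposited the scanner output of 5 arrays, written by Agilent Feature Extraction 10.7.1.1 per the submitters' processing notes, and a value table of the same arrays. The deposited processed signal is a linear intensity, background-subtracted by the software per the file headers. The deposited table is the same intensity divided by 1 constant per array, within 0.01 log2 for 99.7% to 99.8% of probes, with no centring per gene; its column medians were 0.0762 (Th1), 0.103 (Th1+TGFb), 0.123 (rested), 0.0693 (Th1reg) and 0.0925 (iTreg).

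Control spots and the 109 to 142 outlier spots per array were left out. No spot was saturated. Spots of a probe were averaged, and the value was log2 of the signal over the array's 75th percentile of spots. RefSeq accessions matched 28325 of 55670 probes to 21366 genes in a table of GRCm38.p6; the array design names an older build, so that table served for names and gene order only. Dim values took the higher of their own and the lowest signal well above background. A comparison omitted any gene that was dim on its 2 arrays.

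All genes of the list could be named, grouped by role. Genes got a value on every array when among the 4 furthest apart in a comparison or when highest elsewhere than most. Members and lists were chosen with earlier results of these data known. Alternatives were scaling, normexp (limma 3.58.1, offset 50, on median spot signals, added after seeing the data), the deposited table, the median over probes, and other treatments of dim signals. Scripts used pandas 2.3.3 and numpy 2.4.6 and were checked on simulated data.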

Additional observations from a re-analysis of the deposited data

Results flagged for a closer look

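The same step, 4 days in the iTreg condition, went with different results from Th1 and from rested cells, and this difference was not tested because each culture had 1 array. The median log2 difference of the interferon-stimulated genes was 0.0788 from Th1 cells and -1.04 from rested cells. With spike-in scaling these medians were -0.26 and 0.42, in the reverse order. Minus the median of all genes they were 0.28 and -1.33 under either scaling. In 5 genes the 2 steps went in opposite directions, each by at least 2-fold. For Ifit3, an RNA-binding translation inhibitor, the log2 differences were 1.04 and -4.22, the second a bound. Those of Rtp4, the receptor chaperone, were 2.24 and -4.12. Xaf1, the partner of XIAP, had 1.12 and -1.07. Cmpk2, the nucleotide kinase, had 2.01 and -3.22, and Ifitm3, the inhibitor of virus fusion, had 1.23 and -2.01. Opposite differences of that size were found for 12.0% of all genes and 13.9% of these. With spike-in scaling Xaf1 had 0.39 at the second step and so was no longer opposite, Ifit3 had 0.70 at the first step, and Ifitm3 had 0.89 and -0.55, which left Rtp4 (1.90 and -2.66) and Cmpk2 (1.67 and -1.76) past 2-fold at both.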

How the results depend on the processing

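The medians of the interferon-stimulated genes depended on scaling. With spike-ins they turned to -0.62 in rested minus Th1, 0.42 in Th1reg minus rested, -0.26 in Th1+TGFb minus Th1 and -0.66 in rested minus Th1+TGFb, and were -0.64 in iTreg minus Th1 and -0.0013 in Th1reg minus Th1+TGFb. With detected probes they were 1.05, -1.55, 0.32, 0.43, -0.56 and -0.88 in these comparisons and turned to -0.11 in Th1reg minus iTreg. Normexp gave 0.34 in rested minus Th1, -0.76 in Th1reg minus rested, -0.70 in iTreg minus Th1 and -0.48 in Th1reg minus Th1+TGFb. The median over a gene's probes gave 0.41 in rested minus Th1, and genes measured on both arrays gave -0.86 in Th1reg minus rested and -0.54 in Th1reg minus Th1+TGFb. The other 29 medians re-computed moved by less than the technical spread of a difference. Of 696 single-gene differences re-computed, 4 turned, all with spike-ins in Th1reg minus rested. These were Isg15 (0.36), Ddx58 (0.16), Dtx3l (0.42) and Xaf1 (0.39). Ifi44 was left without a difference there with spike-ins. Counts of 2-fold genes differed by over 1.5 times in Th1+TGFb minus Th1 (6 with spike-ins and 6 with normexp, against 10), in iTreg minus Th1 (12 with normexp, against 19) and in Th1reg minus Th1+TGFb (7 measured on both arrays, against 11). No paired analysis was possible because each culture had 1 array. Signal limits Ifit1, Ifit3, Oas2, Oasl1 and Ifi44, which were dim on some arrays, and Rsad2, which was dim on all. With 1 culture each, nothing here separates the effect of a medium from that of a single culture.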

Other observations

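Outside the 38 genes, the following were picked after their values were seen. They come from a list of 46 further interferon-stimulated genes and from one of the interferon-gamma axis. Of the 37 measured in the former, 13 were higher and 5 lower in rested cells than in Th1, or 5 and 14 with spike-in scaling. Over all genes 17.6% were higher and 26.7% lower, or 4.69% and 64.7% with spike-in scaling. Slfn1, of the Schlafen family linked to T cell quiescence, read 0.06 in Th1, 3.07 in rested, 0.70 in Th1+TGFb, -1.31 in Th1reg and 0.03 in iTreg, so rested cells were 8.07-fold above Th1 and 20.8-fold above Th1reg. Its relative Slfn8 was 3.83-fold above Th1 in rested cells. Ms4a4b, a membrane protein gene of T cells, was 7.02-fold higher in rested cells than in Th1 and 23.2-fold higher than in Th1reg. Ly6a, which encodes the surface antigen Sca-1, followed another pattern: it stood in iTreg 234-fold below Th1 and 36.2-fold below Th1reg. Mlkl, the effector of necroptosis, stood in iTreg 35.1-fold below Th1 and 27.5-fold below Th1reg, the same directions as its upstream sensor gene Zbp1. Pml, the scaffold of nuclear bodies that also hold Sp100, was 4.08-fold lower in rested cells than in Th1, whereas Sp100 was 2.55-fold higher in rested cells. With spike-in scaling that Sp100 difference and the one of Slfn8 between rested cells and Th1 were under 2-fold. Ifngr1, a chain of the interferon-gamma receptor, was 4.27-fold higher in rested cells than in Th1, but by less than 2-fold with spike-in scaling. None of these differences could be tested with 1 array per culture.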
